A study of Mus musculus with 7 samples.

Results

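The 10 genes described here encode the receptor for interleukin-2 (IL-2) and the first steps of its signal. They are Il2ra, Il2rb and Il2rg for the receptor chains, Jak1 and Jak3 for the kinases, Stat5a and Stat5b for the transcription factors, and Cish, Socs1 and Socs2 for feedback inhibitors. They were taken by name as members of the pathway, with earlier results of these data known, and all 10 were among the 15815 genes of the expression table. The libraries were made from YFP+ regulatory T (Treg) cells sorted from the mesenteric lymph nodes (mLN) of Rag-/- mice, which make no T or B cells of their own. At 8 weeks before sampling the hosts were given WT cells of 2 kinds, naive T cells and Treg cells, together with a YFP+ Treg population, which was WT in 4 libraries (WT 1 to WT 4) and Hpgd-deficient in 3 (KO 1 to KO 3). All 7 samples carry the same line label, a floxed Hpgd allele (Hpgd fl) with Foxp3-YFP-Cre and deletion in Treg cells, and the strain C57BL/6JRcc. Cre and the YFP mark therefore depend on Foxp3 expression in the sorted cells. The ages of the animals, and whether each library came from a separate host, are not stated in the sources used here. The p-values below therefore measure only how these samples vary, which may be partly technical.

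IL-2 binds a receptor of 3 chains. The alpha chain (CD25) raises the affinity for IL-2, and the beta chain and the common gamma chain carry the signal into the cell. Jak1 and Jak3, bound to the beta and gamma chains, phosphorylate STAT5, which enters the nucleus and activates target genes, among them inhibitors that act back on the receptor and its kinases. Treg cells make little IL-2 themselves, display high levels of CD25 and depend on IL-2 from other T cells for their survival and for Foxp3 expression.

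Cish, a classic STAT5 target, holds a pair of STAT5 motifs at its annotated start, and the site is shown because it joins the transcription factors of the pathway to a feedback gene measured here. The letters are RefSeq sequence of the build GRCm38.p6, chr9:107296654-107296683, plus strand, and the capitals mark the 2 copies of the motif TTCNNNGAA.

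Cish: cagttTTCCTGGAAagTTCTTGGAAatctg

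The motif equals its own reverse complement, so one search covers both strands. The copies begin at bases 1 and 12 counted from the RefSeq start and lie 2 bases apart. In the GENCODE annotation, whose Cish model begins further upstream, this stretch lies in the first exon. Windows of 300 bases around annotated starts (250 before, 50 after) held at least 1 copy in 2726 of 32851 cases (8.30%) and at least 2 copies in 150 (0.457%). Promoter windows were given for 8 of the 10 genes, and Cish was the only one of the 8 with a copy. A match describes letters in this window and is not a measurement of binding.

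The libraries held between 4135733 reads (KO 3) and 10622507 reads (WT 4) in genes of the table. Hpgd, which encodes the prostaglandin-inactivating enzyme 15-hydroxyprostaglandin dehydrogenase, lay at normalized counts of 9.96 to 18.7 in WT and 0.759 to 5.52 in KO. The targeted gene thus followed the labels (log2 difference -2.01, SE 0.79, unadjusted p = 0.0228 in a limma fit to all 15815 genes). These counts stand for 17, 11, 9 and 19 reads in WT 1 to WT 4 and 1, 3 and 3 in KO 1 to KO 3. The Hpgd mean of 8.70 lay below the minimum of 10 used for the tests, so this check rests on few reads. WT 2 stood apart, with 7.79% of its reads in ribosomal protein genes against 4.51% to 5.68% in the other 6 libraries. Of the 11787 genes tested, those whose normalized counts averaged at least 10, WT 2 held the highest value for 29.2% and the lowest for 27.1%. All 8 T and Treg cell markers were detected in every library. Foxp3 itself was read at 56.1 (WT 2) to 161 (WT 3). Markers of other cells were also read: Lyz2 of myeloid cells at a mean of 794, Gzma of cytotoxic cells at 882, Hba.a2 of erythroid cells at 542, Cd79b of B cells at 444 and Epcam of epithelial cells at 368. The erythroid markers moved with the groups in sum, at 491 to 2033 in the WT libraries and 62.2 to 199 in the KO libraries (Hba.a2 log2 difference -2.90, SE 0.49, adjusted p = 0.2013 by limma). The globin genes Hba.a1, Hba.a2 and Hbb.bt carried this difference. Alas2 overlapped between the groups, at 3.62 to 19.0 in WT and 2.28 to 9.69 in KO. The part of the erythroid markers in the values below was not tested.

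In none of the 10 genes did the 3 KO libraries differ from the 4 WT libraries beyond the spread within the groups. For each of the 10, the limma adjusted p was 0.9996, and 0 of the 11787 genes tested passed an adjusted threshold of 0.05 (0.00%). At an unadjusted p under 0.05, 0 of the 10 genes and 211 of all tested genes (1.79%) were counted. Groups did not overlap for 0 of the 10 genes and for 430 of all tested genes (3.65%). The estimate was higher in KO for 4 of the 10 genes and lower for 6, against 51.8% higher over all tested genes, and the median log2 difference was -0.10 for the 10 genes and 0.01 over all tested genes. This balance of directions depended on single libraries: it was 7 higher and 3 lower without KO 3 (median 0.03) or without both WT 2 and KO 3 (median 0.16), 2 higher and 8 lower without KO 1 (median -0.22) or WT 3 (median -0.16), and 5 of each without KO 2 (median -0.07). The 95% intervals reached between 0.40 and 0.59 to either side of each estimate on the log2 scale, so differences smaller than this could not be resolved with 4 and 3 libraries. These intervals are unadjusted. After adjustment over the 11787 genes, larger differences could also go uncalled, as did that of Hba.a2 (-2.90, interval -3.96 to -1.84). In bulk RNA from sorted cells, fewer cells of a type and less RNA per cell cannot be told apart.

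**Figure D1:**
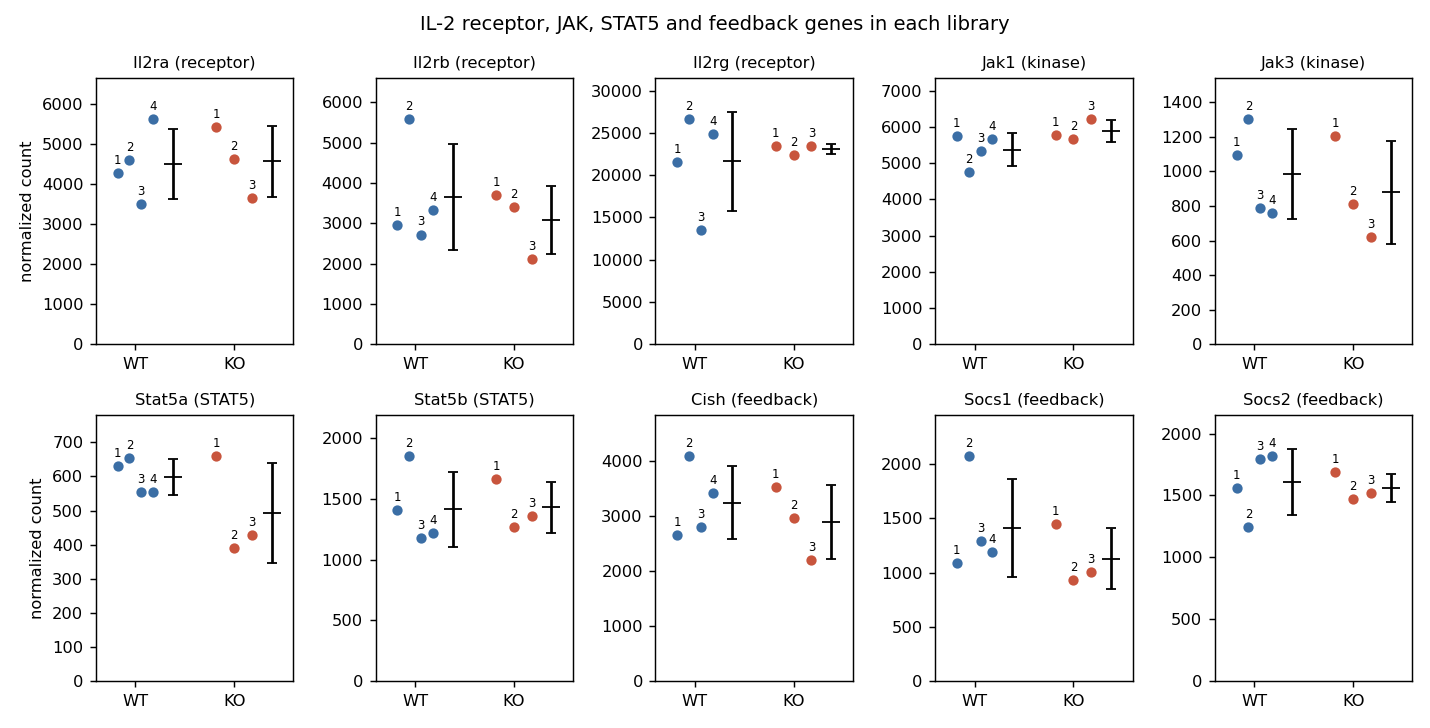
Normalized counts (vertical axes, each from 0) of the 10 genes in each WT (blue) and KO (red) library. Numbers are library numbers, and the black marks show the mean and SD of each group. The groups overlap in every panel, and WT 2 is the highest point for 6 genes.

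Among the receptor chains, Il2ra encodes the alpha chain CD25 (GRCm38, chromosome 2, 11642807 to 11693193, plus strand). Its normalized counts were 4279, 4602, 3509 and 5620.1 in WT 1 to WT 4, and 5420.0, 4613 and 3659 in KO 1 to KO 3. WT 4 and KO 1 were high and WT 3 and KO 3 low, so each group spanned nearly the same range. The log2 difference, KO minus WT, was 0.02 (SE 0.22, 95% interval -0.45 to 0.50). It turned to -0.09 without WT 3 and -0.11 without KO 1.

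Il2rb encodes the signalling beta chain, which is shared with the IL-15 receptor (chromosome 15, 78479256 to 78495271, minus strand). It was at 2967, 5589, 2722 and 3325 in the WT libraries and at 3714, 3412 and 2113 in the KO libraries. WT 2 lay far above the other 6 libraries and KO 3 below them. Its highest value was 2.65 times its lowest, the widest range among the 10 genes. The log2 difference was -0.23 (SE 0.27, interval -0.82 to 0.37). Without KO 3 it was 0.02, and without both WT 2 and KO 3 it was 0.25.

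Il2rg encodes the common gamma chain, which also serves the receptors for IL-4, IL-7, IL-9, IL-15 and IL-21 (chromosome X, 101264378 to 101268255, minus strand). The WT libraries lay at 21559, 26655, 13508 and 24838. The KO libraries lay close together, at 23424, 22447 and 23427, inside the WT range. The WT spread came mostly from WT 3, the lowest library, and the log2 difference of 0.14 (SE 0.27, interval -0.45 to 0.73) turned to -0.07 without it. WT 3 also held the lowest summed level of 3 lists of other cell types, namely myeloid (226, against 1649.5 at most in WT and 679 to 1719.7 in KO), NK and CD8 (326, against 1901 at most in WT and 741 to 1786 in KO) and B cell markers (320.1, against 751 at most in WT and 327 to 433 in KO). One gene carried most of each of these sums in most libraries (Lyz2, Gzma and Cd79b). The other B cell markers, Cd79a (5.65 in WT 3) and Ms4a1 (7.92), were not lowest there, and of the 6 myeloid markers Csf1r and Itgam were not lowest there either. Of the NK and CD8 markers, Ncr1 (10.2 in WT 3), Eomes (31.7) and Cd8b1 (79.2) were instead lowest in KO 3 (0, 0 and 25.7). Low sums in WT 3 were not limited to lists of other cell types. Of the pathway lists described below, WT 3 was lowest for other JAK and STAT genes (17491), STAT5 targets (19943) and the PI3K and Ras branch (17384). WT 2 was lowest for the gamma-chain list (6340.0) and the other negative regulators (17515). Over all tested genes WT 3 held the lowest value for 19.2%. The part of other cell types in the Il2rg level was not tested. The gene model Gm20489, on the same strand, overlaps 728 exon bases of Il2rg (30.5% of its exon length) and was not analysed here, so how reads from the shared bases were assigned is not known here.

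Of the 2 kinases, Jak1 had the narrower range over the libraries. Jak1 serves many cytokine receptors (chromosome 4, 101152367 to 101265282, minus strand) and was at 5751, 4765, 5330.3 and 5677 in the WT libraries and at 5778, 5673 and 6225 in the KO libraries. WT 2 was the lowest library and KO 3 the highest, and the highest was 1.31 times the lowest. The log2 difference was 0.13 (SE 0.18, interval -0.26 to 0.53). Jak3 pairs with the gamma chain alone (chromosome 8, 71676296 to 71690575, plus strand). It was at 1096, 1304, 787 and 758 in the WT libraries and at 1204, 809 and 622 in the KO libraries. WT 1, WT 2 and KO 1 were high and the other 4 libraries low, a division that ran across the groups. The log2 difference was -0.18 (SE 0.27, interval -0.76 to 0.39), and it was 0.04 without KO 3 and 0.19 without both WT 2 and KO 3. Jak3 shares 404 exon bases (7.55%) with Insl3 on the same strand, which was at 251 (KO 2) to 482 (WT 1), so a small part of either level may belong to the other.

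The STAT5 factors are encoded by neighbouring genes on chromosome 11, Stat5b at 100780731 to 100850724 (minus strand) and Stat5a at 100859351 to 100885169 (plus strand). Stat5a was at 630.3, 655, 554 and 555 in the WT libraries and at 661, 390.2 and 428 in the KO libraries. KO 2 and KO 3 lay below all WT libraries, whereas KO 1 was the highest of all 7. Its log2 difference was -0.31 (SE 0.23, interval -0.80 to 0.17), which is the estimate farthest from 0 among the 10 genes. It ranged from -0.55 to -0.17 when each library was left out in turn. The value of -0.55 came without KO 1, and no adjusted p passed.

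Stat5b was at 1405, 1857, 1175 and 1220.2 in the WT libraries and at 1667, 1269 and 1359 in the KO libraries. All 3 KO libraries lay inside the WT range, and the log2 difference was 0.03 (SE 0.21, interval -0.42 to 0.49). It turned to -0.05 without WT 3, -0.03 without WT 4 and -0.08 without KO 1. Of the stretches of 31 bases in the annotated transcripts, 11.5% of those of Stat5a occur in Stat5b and 15.1% of those of Stat5b in Stat5a. Reads from these stretches could be counted for either gene.

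The feedback inhibitors belong to the CIS and SOCS family, which bind phosphorylated receptors or kinases. Cish encodes CIS, which competes at the phosphorylated receptor (chromosome 9, 107296026 to 107302784, plus strand). It was at 2655, 4093, 2796 and 3416 in the WT libraries and at 3519.8, 2954 and 2194 in the KO libraries. WT 2 was highest and KO 3 lowest, as for Il2rb. The log2 difference was -0.17 (SE 0.22, interval -0.66 to 0.31), and it was 0.01 without KO 3 and 0.13 without both. The antisense gene model Gm17041 overlaps 479 exon bases of Cish (7.46%) and was not analysed here. The library protocol keeps no strand, so reads of the 2 could not be told apart there.

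Socs1 encodes an inhibitor that blocks the JAK kinases directly (chromosome 16, 10782240 to 10785536, minus strand). It was at 1090.1, 2078, 1290.5 and 1188 in the WT libraries and at 1450.3, 928 and 1006 in the KO libraries. WT 2 lay well above the other 6 libraries. The log2 difference was -0.30 (SE 0.25, interval -0.84 to 0.24), and it was -0.10 without WT 2, -0.03 without both WT 2 and KO 3, and -0.50 without KO 1.

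Socs2, best known for restraining growth hormone signalling (chromosome 10, 95385362 to 95417180, minus strand), was at 1557, 1247, 1796 and 1822 in the WT libraries and at 1692, 1472 and 1519 in the KO libraries. Here WT 2 was the lowest library, opposite to its place for Cish and Socs1. The log2 difference was -0.03 (SE 0.19, interval -0.45 to 0.39). It turned to 0.03 without WT 3, 0.04 without WT 4 and 0.01 without KO 2.

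The balance of 2 genes of one role within a library does not depend on the scaling of that library, and 4 such ratios were compared after the levels had been seen. Il2ra over Il2rb was 1.44, 0.823, 1.29 and 1.69 in the WT libraries and 1.46, 1.35 and 1.73 in the KO libraries, and WT 2 was the only library with fewer counts for Il2ra than for Il2rb. Between the groups this differed by 0.25 on the log2 scale (exact permutation p = 0.457, adjusted p = 0.610) and 0.04 without WT 2. Stat5b over Stat5a ranged from 2.12 (WT 3) to 2.83 (WT 2) among the WT libraries and was 2.52, 3.25 and 3.17 in the KO libraries. KO 2 and KO 3 lay above all WT libraries and KO 1 below WT 2, a log2 difference of 0.35 between the groups (exact two-sided permutation p = 0.0857 over 35 splits, adjusted p = 0.343 over the 4 ratios, where the smallest possible p is 0.0286). Jak1 over Jak3 ranged from 3.65 to 7.49 in WT and from 4.80 to 10.0 in KO (log2 difference 0.32, exact permutation p = 0.457, adjusted p = 0.610), and the difference was 0.05 without KO 3, 0.11 without WT 2 and 0.59 without KO 1. Cish over Socs2 ranged from 1.56 to 3.28 in WT and from 1.44 to 2.08 in KO (log2 difference -0.14, exact permutation p = 0.771, also after adjustment), and the difference was 0.02 without KO 3 and 0.09 without WT 2. None of the 4 balances passed. With 35 splits and adjustment over 4 ratios, a single ratio could not have reached an adjusted p under 0.05. The test therefore cannot show that the balances were alike in the 2 groups.

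Across genes, levels are compared here as normalized counts per kilobase of annotated exon. The common gamma chain gene stood first by a wide margin, with Il2rg at 9328 ± 1759 (SD, n = 7), above Il2ra in all 7 libraries by 3.55 on the log2 scale. Il2ra (793 ± 140.4), Jak1 (775 ± 62.6) and Il2rb (795 ± 256) followed at levels that did not differ beyond their spread. Cish (481 ± 98.4) and Socs1 (444 ± 134) came next, then Stat5b (257 ± 45.3), Jak3 (176 ± 48.3) and Socs2 (166 ± 21.2), and Stat5a was lowest at 77.6 ± 15.2.

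Of the 9 pairs of neighbours in this order, 5 differed in the same direction in all 7 libraries (exact two-sided sign-flip permutation p = 0.0156, the smallest that 128 flips give, and adjusted p = 0.0281 over the 9 pairs). These were Il2rg above Il2ra, Il2rb above Cish (log2 difference 0.69), Socs1 above Stat5b (0.76), Stat5b above Jak3 (0.57) and Socs2 above Stat5a (1.11). The pairs Il2ra and Jak1 (0.02, exact permutation adjusted p = 0.922), Jak1 and Il2rb (0.02, 0.922), Cish and Socs1 (0.14, 0.375), and Jak3 and Socs2 (0.04, 0.922) were not separated per kilobase of exon. The middle of the order depended on the length used. Il2rb minus Cish was -0.04 per kilobase of the median coding transcript (higher in 3 of 7 libraries) and -0.45 per kilobase of the longest one (lower in 7 of 7), so this pair has no order independent of length. By the same 2 lengths Cish minus Socs1 was 1.33 and 1.31, and Jak3 minus Socs2 was -2.87 and -1.64, each in 7 of 7 libraries. Il2ra minus Jak1 was -0.35 (lower in 7 of 7) and -0.17 (lower in 4 of 7). Jak1 minus Il2rb was 0.96 and 0.54, higher in 6 of 7 by both. Il2rg stayed above Il2ra, Socs1 above Stat5b and Socs2 above Stat5a in all 7 libraries under all 3 lengths, and Stat5b above Jak3 in 7, 7 and 6. Socs2, whose exons together span 9.53 kilobases, stood 9 by exon length, 3 by the median coding transcript and 6 by the longest one, while Il2rg stood 1 and Stat5a 10 under each of these lengths.

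**Figure D2:**
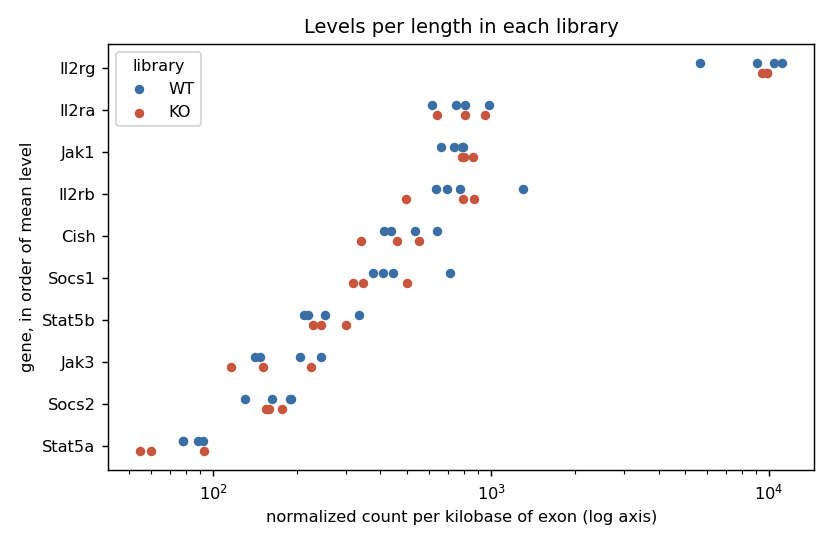
Normalized count per kilobase of annotated exon (log axis) of each gene in the WT (blue) and KO (red) libraries, with genes in order of mean log2 level. Il2rg lies above every other gene in all 7 libraries and Stat5a is lowest, with a mean of 77.6.

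How much each gene varied over the 7 libraries was also compared with all tested genes, by the SD of log2(normalized count + 1). The median SD was 0.30 for the 10 genes and 0.40 over all tested genes. Jak1 was the steadiest of the 10, with an SD of 0.12, lower than in all but 1.09% of tested genes, and Socs2 followed at 0.19 (percentile 7.79). Il2rb varied most, with an SD of 0.43 (percentile 54.2), then Jak3 (0.40) and Socs1 (0.39). For 2 of these much of the spread lay in WT 2, without which the SD was 0.29 for Il2rb and 0.24 for Socs1.

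WT 2 held the highest value for 6 of the 10 genes (Il2rb, Il2rg, Jak3, Stat5b, Cish and Socs1) and the lowest for Jak1 and Socs2, with a median deviation of 0.34 from the genes' medians on the log2 scale. KO 1 was also on the high side (median deviation 0.24). KO 3 was on the low side (-0.29), with the lowest value for Il2rb, Jak3 and Cish and the highest for Jak1. Over all tested genes KO 3 held the lowest value for 20.3% and the highest for 21.0%. The median deviation over all tested genes was 0.00 in each of these libraries. The scaling of the libraries sets that value in advance, so it does not show how far any 10 genes would stray. The libraries that stood high and low for these 10 genes came from both groups.

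**Figure D3:**
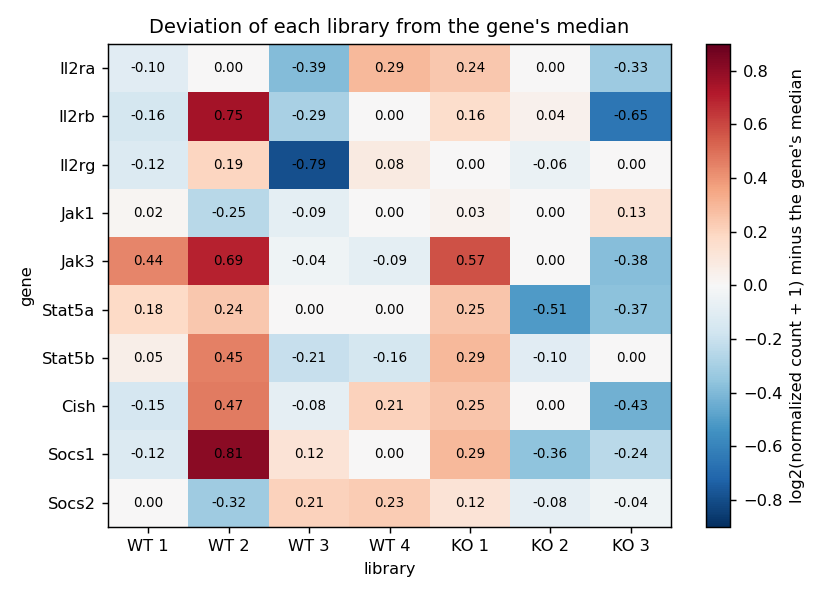
Log2(normalized count + 1) of each gene (rows) in each library (columns), minus the gene's median over the 7 libraries. Red cells are above the median and blue cells below. The WT 2 column is red for most genes, and the Jak1 row is the palest.

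The genes' levels were compared pairwise over the 7 libraries, which share 1 scaling factor per library. Of 45 pairs, 32 correlated positively and 13 negatively, 10 had an exact permutation p under 0.05 for Pearson's r and 3 for Spearman's rho, and 0 passed after adjustment over the 45 pairs (smallest adjusted p 0.179 and 0.304). Without WT 2, 8 of the 45 signs turned, and pairs with an absolute r over 0.5 numbered 16 in place of 26.

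The closest pair was Il2rb, the signalling chain, and Cish, the STAT5-induced inhibitor (r = 0.94, exact permutation p = 0.00397, adjusted p = 0.179, and rho = 0.93, exact permutation p = 0.00675, adjusted p = 0.304, n = 7). Leaving out KO 3 and WT 2, the libraries farthest from the Il2rb median, r was 0.80, and leaving out 1 library at a time it was 0.90 to 0.97. Over the 4 WT libraries alone, r was 0.92. By contrast, Il2rb and Jak1 had r = -0.81 (exact permutation p = 0.0413, adjusted p = 0.207, rho = -0.43, exact permutation p = 0.354, adjusted p = 0.636, n = 7). Without KO 3 and WT 2 that r was 0.75, so the negative relation rests on those libraries. Il2ra and Il2rb, chains of one receptor, had r = 0.56 (exact permutation p = 0.177, adjusted p = 0.363, rho = 0.64, exact permutation p = 0.139, adjusted p = 0.536, n = 7), and -0.05 without KO 3 and WT 3, but 0.82 without WT 2. Leaving out 1 library at a time gave 0.37 to 0.82.

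**Figure D4:**
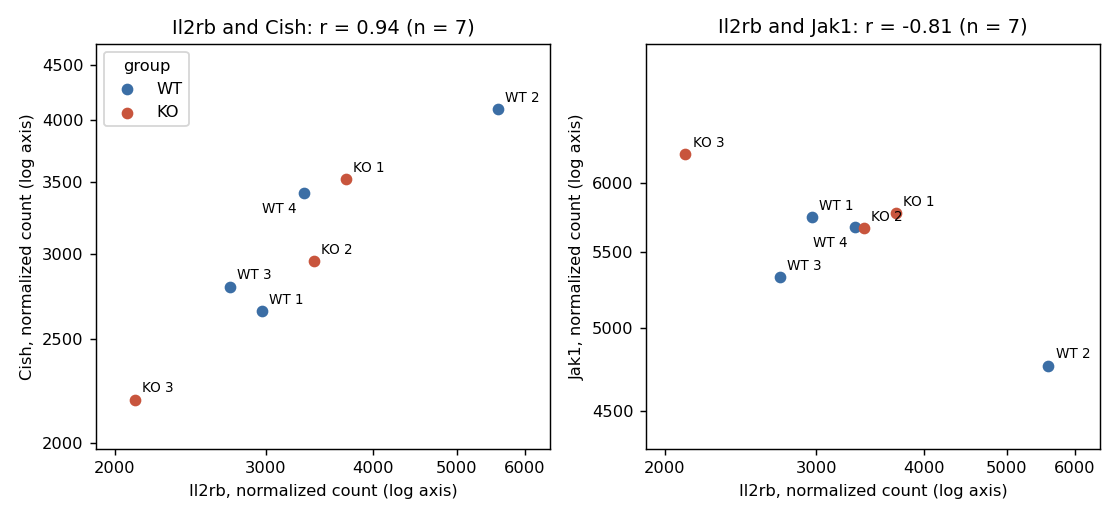
Normalized counts of Il2rb (horizontal, log axis) against Cish (left) and Jak1 (right, both vertical axes log) in the 7 libraries, WT in blue and KO in red. Cish rises with Il2rb over the whole range (r = 0.94), while the fall of Jak1 (r = -0.81) rests on WT 2 and KO 3 at the ends.

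The genes with the pattern most like that of a member over the 7 libraries were found among 7801 genes with a mean of at least 100, by the root mean square difference of their centred log2 values. For Il2ra they were Gorasp2 (0.06), Nedd9 (0.07) and Urgcp (0.07), against a median of 0.37 over all candidates. Closest to Cish were Cd6 (0.05), a T cell surface receptor read at a mean of 4295, then Pmpca (0.08) and Spg20 (0.08), against a median of 0.38. Socs2 was matched most closely by Chd3 (0.06), Ankrd10 (0.06) and Parp11 (0.07), against a median of 0.37. These genes were taken for their small distance, so their place below the median follows from that choice. How often such matches arise by chance over 7 libraries was not tested.

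The rest of the pathway gave no called change either, and the adjusted p by limma was 0.9996 for each tested gene named from its 5 lists. Of 12 cytokines and receptors that use the gamma chain or, in the case of Crlf2, resemble it, 8 were tested, 3 higher and 5 lower in KO, with 0 passing and a median log2 difference of -0.03. Il7r, the IL-7 receptor chain, was the most abundant at a mean of 4923, with WT 2 lowest at 2478 and KO 3 highest at 6806 (log2 difference 0.25, SE 0.30). Crlf2, a receptor chain for thymic stromal lymphopoietin, had the smallest p of the list (log2 difference -0.57, SE 0.32). Il2 itself lay below the minimum, with a mean of 5.30, at 18.7 in WT 1 and 2.11 to 4.53 in the other WT libraries, and at 2.28, 2.42 and 3.68 in KO. Il2 and Foxp3 are named outside the naming rule, after their values had been seen.

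Of the 7 other JAK and STAT genes, 3 were higher and 4 lower, with 0 passing and a median of -0.02. Stat6, the factor of IL-4 signalling, had the smallest p (log2 difference 0.21, SE 0.21). Among 15 other negative regulators, 7 were higher and 8 lower, with 0 passing and a median of 0.00. Ptprc, the phosphatase CD45, was at 7908 in WT 2 and at 15370.0 to 19597 in the other 6 libraries (log2 difference 0.38, SE 0.29). Pias2 had the smallest p of that list (0.44, SE 0.26).

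Downstream, 13 genes known as STAT5 targets were tested, 8 higher and 5 lower, with 0 passing and a median of 0.11. Ccnd2, a cyclin of the G1 phase, was at a mean of 7089 (log2 difference 0.02, SE 0.20), and the cytokine gene Osm had the smallest p (0.33, SE 0.25). The 13 genes of the PI3K and Ras branch of the receptor gave 5 higher and 8 lower, 0 passing and a median of -0.07. Lck, the kinase that links the T cell receptor to its signal, was at a mean of 10415 (-0.02, SE 0.21), and Akt2 had the smallest p (-0.39, SE 0.25). In these 5 lists 0 genes had an unadjusted p under 0.05 and 0 had groups that did not overlap, against 1.79% and 3.65% of all tested genes.

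**Figure D5:**
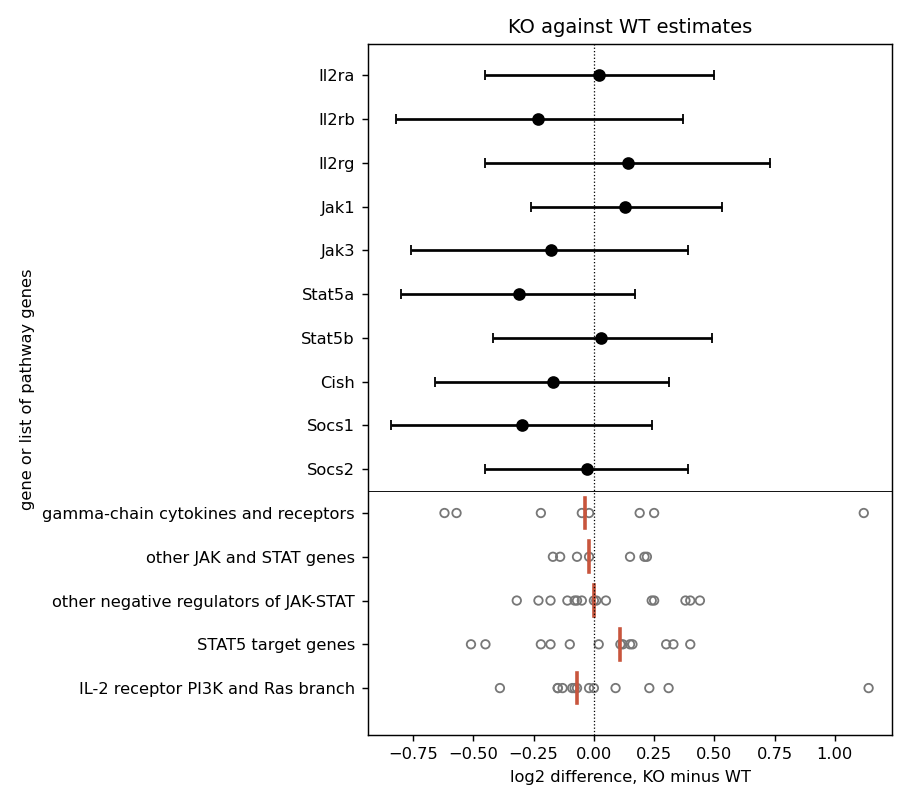
Log2 difference, KO minus WT (horizontal axis), for the 10 genes with 95% intervals (black, top) and for the genes of 5 other pathway lists (open circles, with the list's median as a red bar). Every interval of the 10 genes spans 0, and the medians of the lists lie between -0.07 and 0.11.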

How the data were processed

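RNA-seq was done on 4 WT and 3 KO libraries. Per the labels' protocols, 10 ng of RNA per sample was made into SmartSeq2 libraries and sequenced on a NextSeq 500, and bcl2fastq2 2.20 split the reads by sample. Listed without a role in the submitters' processing notes are the build mm10 and the tools kallisto 0.44, DESeq2, Partek 6.6, CASAVA 1.8 and R 3.3.1. Each deposited value is a signal that the authors had normalized, with an offset of 1. In all 7 libraries 100.0% of values minus 1 were whole multiples of the worth of 1 read, within 0.01 of a read. Normalized counts here are the deposited values minus 1, and reads were recovered from the steps. Intervals cover no amplification error, since there were no molecular identifiers.

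Groups were compared by limma 3.58.1 (R 4.3.3), fitted to log2(normalized count + 1) for the 11787 genes with a mean of at least 10, with a trended prior and Benjamini-Hochberg adjustment at 0.05. The added 1 understates changes of low genes. No 2 libraries agreed within sampling noise (smallest chi-square per degree of freedom 12.9). Lengths and coordinates are from GENCODE M21 (GRCm38). The code was tested on simulated data. The 10 genes and the gene lists were chosen with earlier results of these data known. All 10 were named, and of each other list the most abundant gene and, for pathway lists, the gene with the smallest p. One gene that this rule names is not reported here. Alternatives were other pseudocounts, filters, scalings, priors and weights, voom, a block for the replicate number, and fits without single libraries.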

Additional observations from a re-analysis of the deposited data

Results flagged for a closer look

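Among 39 genes examined in the 4 WT libraries, 2 had 1 library set apart by a gap above Dixon's 95% critical value for 4 samples, and chance alone gives about 1 such case in 20. Lyz2, a lysozyme gene of myeloid cells, was at 47.5 in WT 3 and between 962 and 1090.1 in the other WT libraries (gap 0.877 of the range). WT 3 was also the lowest library for Il2rg. Il2, the ligand gene of the receptor, was at 18.7 in WT 1 and between 2.11 and 4.53 in the other WT libraries (gap 0.854 of the range). Il2 was named after its values had been seen, so the chance rate does not apply to it. Its mean of 5.30 also lay below the minimum for testing, so the gap rests on few reads. The part of Lyz2 and Il2 in the levels of the IL-2 receptor genes was not tested.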

How the results depend on the processing

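No alternative called any of the 10 genes, and over 18 alternatives for each the smallest adjusted p was 0.921. The sign of the KO minus WT estimate turned in 18 of 180 estimates, in 7 genes, and never for Jak1, Stat5a and Socs1. Array weights gave 0.07 for Il2rb. Without both WT 2 and KO 3 the estimates were 0.25 for Il2rb, 0.19 for Jak3 and 0.13 for Cish. Leaving out 1 library at a time gave -0.11 to 0.17 for Il2ra, -0.38 to 0.02 for Il2rb, -0.07 to 0.26 for Il2rg, -0.44 to 0.04 for Jak3, -0.08 to 0.17 for Stat5b, -0.33 to 0.01 for Cish, -0.14 to 0.04 for Socs2, -0.27 to 0.09 for the ratio of Cish over Socs2, 0.05 to 0.59 for Jak1 over Jak3 and 0.04 to 0.39 for Il2ra over Il2rb. The cause of these turns was not tested. Over all genes, 0 were called in the main analysis and in 15 alternatives, 4 with array weights and 4 without both WT 2 and KO 3. In the order per length, 7 of 9 neighbour pairs, in an order of their own, passed with the median coding transcript, 3 with the longest one (chosen after seeing the data) and 0 to 0 with each library left out. In each of those fits 5 pairs reached the smallest p that 6 libraries give, 0.0312, which adjusts to 0.0563. The labels number WT and KO libraries alike, but same-numbered libraries did not deviate together (correlations 0.01, -0.04 and 0.09). With the replicate block, 3 genes were called, none of the 10, and the estimates were -0.03 for Stat5b and 0.04 for Socs2. The planned edgeR and DESeq2 fits were not run. The deposited values are normalized with an offset of 1. Of the methods for counts, only voom was run, on the recovered reads. With 4 and 3 libraries, log2 differences under 0.40 could not be resolved by the unadjusted 95% intervals for any of the 10 genes. The lowest of these genes held 233 reads in 1 library.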
